A study of Mus musculus with 12 samples.

Results

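The genes described here are the matrix metalloproteinases (Mmp genes), the ADAMTS proteinases (Adamts genes), the ADAMTS-like proteins (Adamtsl genes) and the tissue inhibitors of metalloproteinases (Timp genes), measured by RNA sequencing in 4 mouse melanoma cell lines. Members were taken by gene symbol alone, which gave 23 Mmp, 19 Adamts, 5 Adamtsl and 4 Timp genes, or 51 of the 55471 gene identifiers counted. The groups were MeVa2.1.dOVA, MeVa2.1, MeVa2.2.dOVA and MeVa2.2, with 3 libraries each. Per the labels, all 4 are murine melanoma lines with subcutaneous skin tumour as the source, all have the genotype WT, and all cells were untreated. In the title of the series, MeVa2.1.dOVA is named immune-refractory. The labels do not spell out dOVA or how the lines were made, so each dOVA line was set against the line whose name it extends. Each group is a single line, so a difference between MeVa2.1 and MeVa2.2 is one between these lines. The labels do not say whether replicates came from separate cultures, and p-values therefore cover the variation among these libraries alone, which could be technical.

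Matrix metalloproteinases are zinc-dependent endopeptidases that are secreted or held at the cell surface, and most are made as inactive proenzymes that other proteinases activate. ADAMTS enzymes are secreted relatives that trim procollagens or cut large proteoglycans such as versican and aggrecan, while ADAMTS-like proteins share their ancillary domains but lack the catalytic one. TIMPs bind the active sites of metalloproteinases and hold them in check. In skin tumours these genes are expressed by tumour cells as well as by fibroblasts, and they are studied for their part in matrix turnover and invasion.

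Gene counts per library ranged from 16181816 to 35627069. Replicate 3 was the deepest library of every line, at 26291546 or more, while replicates 1 and 2 had at most 19204452. Of the 51 members, 32 had enough counts to be tested among 13985 genes, and 19 did not. In each library Mitf, a melanocyte lineage factor, lay between 9.12 and 24.4 CPM (counts scaled to the effective library size). The other melanocytic markers were low: Sox10 reached at most 1.10 CPM, Pmel 6.27 CPM, Mlana 2.61 CPM and Tyr 2.38 CPM in any library. The pigment genes Dct and Tyrp1 were at 0 in replicate 2 of all 4 lines, and reached 15.6 and 12.1 CPM in MeVa2.2 replicate 1. In MeVa2.1.dOVA, MeVa2.1 and MeVa2.2.dOVA both were also at 0 in replicate 3, so only replicate 1 of these lines held counts. The T cell marker Cd3e was at 0 in all 12 libraries, and the pan-leukocyte marker Ptprc reached at most 0.232 CPM. The macrophage marker Cd68 lay between 1.24 and 4.26 CPM in every library and Lyz2 reached 1.77 CPM, with a summed level of 8 leukocyte markers of 1.40 to 5.93 CPM. Of 5 neutrophil markers, summing to at most 6.11 CPM, Ly6g, Elane and Mpo were at 0 throughout. Libraries of a line did not all lie close together, and 4 lay away from their line. MeVa2.1.dOVA replicate 2 correlated with its own line at 0.956 and 0.958 (log2 CPM over tested genes), while replicates 1 and 3 correlated at 0.983 with each other. MeVa2.2 replicate 2 correlated more closely with MeVa2.2.dOVA replicate 1, at 0.969, than with its own line, at 0.932 and 0.956. MeVa2.2.dOVA replicate 3 correlated with its own line at 0.952 and 0.96, while replicates 1 and 2 correlated at 0.985 with each other. MeVa2.1 replicate 3 correlated at 0.969 with both libraries of its own line and at 0.979 with MeVa2.1.dOVA replicate 3. Counts of changed members are therefore also given without both replicate 2 libraries named here and without all 4. These libraries were picked because they lay away from their lines, so leaving them out lowers the spread within lines by construction.

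The lines expressed a limited part of the family, and the inhibitors dominated it. Per kilobase of exon, Timp1, a soluble inhibitor of most secreted Mmp enzymes, had the highest level over all 12 libraries, at 521 CPM per kb. Timp2, which both inhibits enzymes and helps Mmp14 to activate Mmp2, followed at 245 CPM per kb. Mmp14, the main membrane-type collagenase, came next at 65.0, then Mmp3 at 63.2, Timp3 at 50.2, Mmp11 at 44.2 and Mmp2 at 42.1 CPM per kb. The Mmp3 level was uneven over the lines: it averaged 32.3 ± 33.7 CPM per kb in MeVa2.1.dOVA, 201 ± 227 in MeVa2.1, 0.711 ± 0.511 in MeVa2.2.dOVA and 18.7 ± 21.7 in MeVa2.2 (SD, n = 3), and MeVa2.1 replicate 1 held its highest level. In all, 26 members averaged at least 10 CPM in at least 1 line, and 11 averaged at least 100 CPM. The heat map of the tested members shows each of them in every library.

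**Figure D1:**
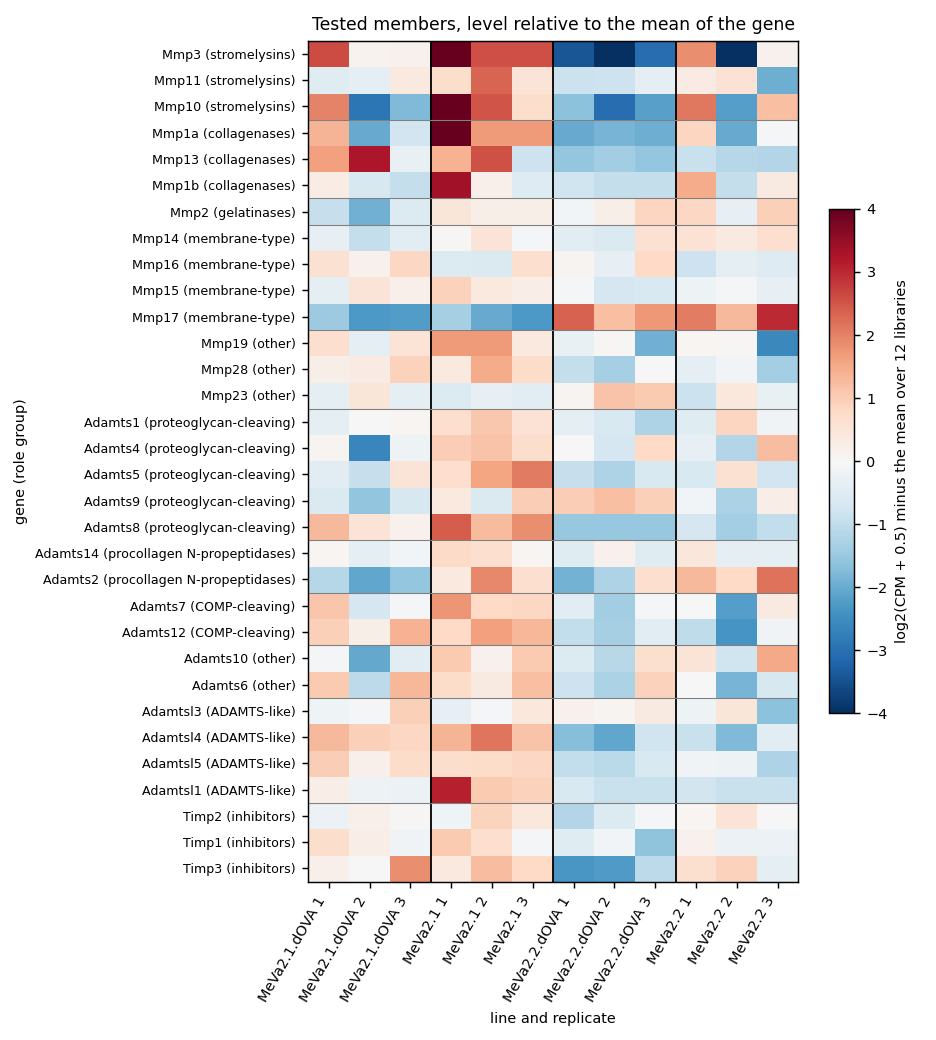
Level of the 32 tested members in the 12 libraries, as log2(CPM + 0.5) minus the mean of the gene over the libraries, with colours limited to 4 in either direction. Rows are grouped by role, and vertical lines separate the 4 lines. Mmp17 is low in all 6 libraries of MeVa2.1.dOVA and MeVa2.1, and Adamts8, Adamtsl4 and Adamtsl5 are low in most libraries of MeVa2.2.dOVA and MeVa2.2.

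The 19 untested members had little or no signal. No read was counted in any library for 8 of them: the enamel proteinase Mmp20, the matrilysin Mmp7, Mmp21 and Mmp27, the von Willebrand factor-cleaving Adamts13, the procollagen N-propeptidase Adamts3, and Adamts16 and Adamts18. A count of 0 allows a level of up to 3 counts over a line's 3 libraries, which is 0.0439 CPM in MeVa2.1.dOVA, 0.0409 CPM in MeVa2.1, 0.0423 CPM in MeVa2.2.dOVA and 0.0483 CPM in MeVa2.2. A further 7 had 1 to 5 counts in all 12 libraries together, among them the neutrophil collagenase Mmp8 with 2 and the inhibitor Timp4 with 1. The last 4, Mmp24, Adamts17, the macrophage elastase Mmp12 and the gelatinase Mmp9, had 6, 14, 28 and 76 counts. Mmp9 was at 0.183, 0.118 and 0.201 CPM in MeVa2.1.dOVA and 0.819, 0.219 and 0.412 CPM in MeVa2.1, in the order of replicates 1, 2 and 3. It was at 0.475, 0.609 and 0.0835 CPM in MeVa2.2.dOVA and 0.174, 0.162 and 0.038 CPM in MeVa2.2. Mmp2, the other gelatinase, passed the filter and is described below.

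A cluster on chromosome 9 holds 10 of the members within 427 kb (GRCm38, 7272514 to 7699585), among them all the collagenases and the stromelysins Mmp3 and Mmp10. Only 5 of the 10 were expressed enough to be tested, and 3 were at 0. The 120 bases before the RefSeq transcription start (GRCm38.p6) of these 5 genes are shown because all of them hold the same pair of motifs. Capitals mark the AP-1 heptamer, which was searched as TGACTCA and as its reverse complement TGAGTCA, and which binds Fos and Jun proteins. Coordinates, strand and the distance from the first base of the heptamer to the start follow the sequences.
Mmp13: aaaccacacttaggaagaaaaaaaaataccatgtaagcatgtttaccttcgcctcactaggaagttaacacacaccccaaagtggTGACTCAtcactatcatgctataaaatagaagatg
Mmp1b: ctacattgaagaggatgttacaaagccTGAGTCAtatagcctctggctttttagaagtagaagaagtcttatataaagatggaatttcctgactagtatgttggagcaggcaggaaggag
Mmp3: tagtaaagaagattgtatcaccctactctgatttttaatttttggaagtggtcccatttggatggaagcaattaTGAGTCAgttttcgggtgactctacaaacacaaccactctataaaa
Mmp1a: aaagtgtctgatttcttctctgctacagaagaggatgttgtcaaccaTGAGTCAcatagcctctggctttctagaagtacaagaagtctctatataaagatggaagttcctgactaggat
Mmp10: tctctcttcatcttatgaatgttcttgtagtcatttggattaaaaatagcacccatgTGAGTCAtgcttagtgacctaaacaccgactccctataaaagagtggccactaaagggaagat
These stretches lie at chr9:7272394-7272513 (Mmp13, plus strand), chr9:7388027-7388146 (Mmp1b, minus strand), chr9:7445702-7445821 (Mmp3, plus strand), chr9:7464021-7464140 (Mmp1a, plus strand) and chr9:7502222-7502341 (Mmp10, plus strand). The heptamer begins 35 bases before the start in Mmp13, 93 in Mmp1b, 46 in Mmp3, 73 in Mmp1a and 63 in Mmp10. A TATAAA hexamer, searched on both strands (as TATAAA and TTTATA), begins 16, 49, 7, 28 and 29 bases before the start in the same order and does not overlap the heptamer. In the 250 bases before the start, the heptamer was present in 4.463% of all 32851 RefSeq windows, in 5 of the 5 windows of the tested cluster genes and in 0 of 27 windows of members outside the cluster. Of all 12 cluster windows, 7 held the heptamer and 6 held both motifs. The cluster genes outside the tested 5 included Mmp7, at 0 counts, with both motifs in 1 of its windows, and Mmp12 with the heptamer in 1 window and no hexamer, so the motifs were not limited to the tested genes. The hexamer was present in 12.37% of all windows, and both motifs were present in 0.7214%. The cluster windows were poor in G and C, with a median of 40.4% in the tested genes, against 64.4% in members outside the cluster and 52.4% in all windows. Windows were matched for 36 of the 51 members, and for all 10 in the cluster. A match in the letters is a description and does not show binding.

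Between the lines of the 2 origins, most tested members stood higher in MeVa2.1 than in MeVa2.2. Adamtsl4, Adamts8, Adamtsl1, Adamts12 and Adamtsl5 rose in MeVa2.1 relative to MeVa2.2, and the membrane-type Mmp17 fell. That is 6 of 32 tested members, 5 higher and 1 lower (edgeR's quasi-likelihood test, Benjamini-Hochberg adjusted p under 0.05), while 4.48% of all tested genes were called, 2.82% higher and 1.66% lower. The fitted difference was positive for 27 members and negative for 5, with a median log2 difference of 1.28 over the members and -0.02 over all tested genes. Between the dOVA lines, 10 members were called, 7 higher and 3 lower in MeVa2.1.dOVA relative to MeVa2.2.dOVA, while 11.3% of all genes were called, 6.45% higher and 4.81% lower. Here 24 members were positive and 8 negative, with a median of 0.85 over the members, the same with Adamts8 at its lower bound, and 0.01 over all genes. The members that rose were Adamts8, Adamtsl4, Adamtsl5, Adamts12, Mmp13, Mmp3 and Timp3, and those that fell were Mmp17, Adamts9 and Mmp2. These comparisons use different libraries, and their values are given side by side below.

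Mmp17 is a membrane-type enzyme (MT4-MMP) tethered by a glycolipid anchor, encoded on chromosome 5 (129584169 to 129611099, plus strand). It was at 1.35, 0.533 and 0.573 CPM in MeVa2.1.dOVA, libraries 1 to 3, and at 25.4, 11.2 and 16.4 CPM in MeVa2.2.dOVA. Among the other lines it was at 1.53, 0.766 and 0.522 CPM in MeVa2.1 and at 20.6, 12.1 and 39.3 CPM in MeVa2.2. No library of either MeVa2.1 line reached the lowest library of either MeVa2.2 line. The log2 difference was -4.71 ± 0.61 (SE) for MeVa2.1 against MeVa2.2, with an adjusted p of 0.0012, and -4.46 ± 0.61 for MeVa2.1.dOVA against MeVa2.2.dOVA, with an adjusted p of 0.000896 (edgeR). The other membrane-type genes were not called between origins.

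Adamts8, a proteoglycan-cleaving ADAMTS gene on chromosome 9 (30942562 to 30963838, plus strand), was not counted in MeVa2.2.dOVA. It was at 3.0, 1.60 and 1.12 CPM in MeVa2.1.dOVA, against 0 in all 3 libraries of MeVa2.2.dOVA. It was at 7.10, 2.95 and 4.72 CPM in MeVa2.1, against 0.406, 0.054 and 0.228 CPM in MeVa2.2. With 115 counts in MeVa2.1.dOVA and 0 in MeVa2.2.dOVA, the level was at least 41.0-fold higher in MeVa2.1.dOVA, taking a floor of 3 counts over the group. The test between the dOVA lines gave an adjusted p of 0.00147, and the parents differed by 4.40 ± 0.70 with an adjusted p of 0.00741 (edgeR). The groups did not overlap in either comparison.

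Of the 4 tested ADAMTS-like genes, 3 were higher in a MeVa2.1 line. Adamtsl4, whose product binds fibrillin microfibrils, was at 67.3, 53.2 and 48.2 CPM in MeVa2.1.dOVA, against 7.91, 5.98 and 15.4 CPM in MeVa2.2.dOVA. It was at 70.2, 122 and 59.8 CPM in MeVa2.1, against 14.3, 7.56 and 19.6 CPM in MeVa2.2. The lowest MeVa2.1 library lay well above the highest MeVa2.2 library in both pairs. The log2 difference was 2.52 ± 0.43 (adjusted p = 0.00379, edgeR) between the dOVA lines and 2.6 ± 0.43 (adjusted p = 0.00622) between the parents. Adamtsl5, also a fibrillin-binding protein, was at 41.3, 23.6 and 34.7 CPM in MeVa2.1.dOVA, against 10.2, 9.36 and 13.2 CPM in MeVa2.2.dOVA. It was at 34.0, 34.7 and 36.8 CPM in MeVa2.1, against 18.7, 17.8 and 8.51 CPM in MeVa2.2. Its log2 difference was 1.60 ± 0.31 (adjusted p = 0.00672, edgeR) between the dOVA lines and 1.23 ± 0.30 (adjusted p = 0.044) between the parents, without overlap in either pair. Adamtsl1, or punctin, was low throughout, at 0.612, 0.296 and 0.287 CPM in MeVa2.1.dOVA and 0.105, 0 and 0 CPM in MeVa2.2.dOVA. It was at 7.48, 1.42 and 1.24 CPM in MeVa2.1 and 0.0581, 0 and 0 CPM in MeVa2.2. The 208 counts in MeVa2.1 and 1 in MeVa2.2 give a ratio of 177 (exact 95% counting interval 31.4 to 7013), with an adjusted p of 0.0078 (edgeR), and replicate 1 of MeVa2.1 held the highest level. The 25 counts in MeVa2.1.dOVA and 2 in MeVa2.2.dOVA give a ratio of 13.4 (3.34 to 117), which was not called (adjusted p = 0.0944, edgeR). It was called with the replicate number as a block (adjusted p = 0.00774, edgeR) and by DESeq2 (adjusted p = 0.0387). Such intervals and floors cover counting error only. Adamtsl3 was not called in any of the 6 tests with edgeR, at 140.2, 149 and 306 CPM in MeVa2.1.dOVA, 126, 148 and 211 CPM in MeVa2.1, 177, 171 and 201 CPM in MeVa2.2.dOVA and 137, 218 and 49.8 CPM in MeVa2.2.

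**Figure D2:**
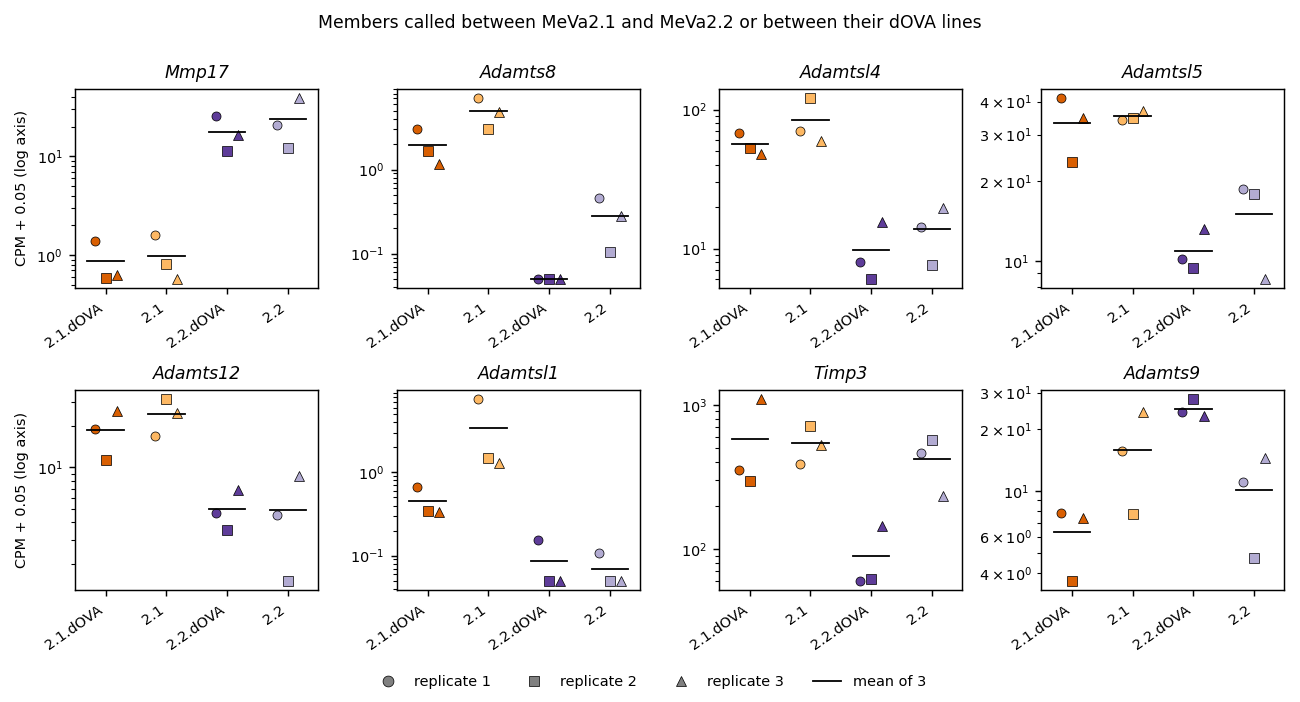
CPM + 0.05 on a log axis for 8 members called between MeVa2.1 and MeVa2.2 or between their dOVA lines. Points are single libraries, shaped by replicate number, and bars are the means of 3. Mmp17 is at 1.53 CPM or lower in all 6 libraries of MeVa2.1.dOVA and MeVa2.1 and at 11.2 CPM or higher in all 6 of MeVa2.2.dOVA and MeVa2.2, and Adamts8 is at 0 in MeVa2.2.dOVA.

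Adamts12 and Adamts7 cleave cartilage oligomeric matrix protein and were both measured. Adamts12 was at 19.0, 11.3 and 25.7 CPM in MeVa2.1.dOVA, against 4.59, 3.49 and 6.84 CPM in MeVa2.2.dOVA. It was at 16.9, 31.1 and 24.7 CPM in MeVa2.1, against 4.47, 1.46 and 8.63 CPM in MeVa2.2. All libraries of the MeVa2.1 lines were above those of the MeVa2.2 lines, with log2 differences of 1.90 ± 0.54 between the dOVA lines (adjusted p = 0.044, edgeR) and 2.31 ± 0.55 between the parents (adjusted p = 0.0374). Adamts7 was at 86.8, 24.7 and 37.5 CPM in MeVa2.1.dOVA and 29.1, 15.0 and 38.8 CPM in MeVa2.2.dOVA. It was at 136, 69.4 and 72.0 CPM in MeVa2.1 and 40.0, 8.32 and 51.7 CPM in MeVa2.2. The parents did not overlap for Adamts7, but the difference of 1.47 ± 0.63 had an adjusted p of 0.252 without and 0.0312 with the replicate block (edgeR).

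The stromelysins and collagenases of the chromosome 9 cluster spread over a wide range, both between lines and between replicates. Mmp3, or stromelysin-1, which cuts proteoglycans and fibronectin and activates other Mmp proenzymes, was at 128, 23.0 and 23.2 CPM in MeVa2.1.dOVA, against 1.48, 0.277 and 2.09 CPM in MeVa2.2.dOVA. It was at 835, 127 and 126 CPM in MeVa2.1, against 76.7, 0.648 and 23.6 CPM in MeVa2.2. Every MeVa2.1 library lay above every MeVa2.2 library within each pair, and replicate 1 was the highest in 3 of the 4 lines. The log2 difference was 5.43 ± 1.5 between the dOVA lines (adjusted p = 0.0385, edgeR) and 3.43 ± 1.32 between the parents (adjusted p = 0.192 without and 0.0174 with the replicate block). Mmp13, or collagenase-3, was at 4.04, 13.3 and 0.688 CPM in MeVa2.1.dOVA, against 0, 0.0554 and 0 CPM in MeVa2.2.dOVA. It was at 3.33, 8.09 and 0.329 CPM in MeVa2.1, against 0.29, 0.162 and 0.152 CPM in MeVa2.2. Unlike for Mmp3, replicate 2 was the highest in both MeVa2.1 lines. The 315 counts in MeVa2.1.dOVA and 1 in MeVa2.2.dOVA give a ratio of 337 (60.1 to 13364), with an adjusted p of 0.00929, and the parents differed by 4.26 ± 1.26 (adjusted p = 0.0878 without and 0.0091 with the replicate block, edgeR).

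Mmp1a, a mouse counterpart of the human interstitial collagenase, was at 4.71, 0 and 0.688 CPM in MeVa2.1.dOVA, against 0, 0.0554 and 0.0278 CPM in MeVa2.2.dOVA. It was at 69.3, 6.07 and 6.04 CPM in MeVa2.1, against 3.19, 0 and 1.44 CPM in MeVa2.2. The 101 counts in MeVa2.1.dOVA and 2 in MeVa2.2.dOVA give a ratio of 54.1 (14.6 to 453), with an adjusted p of 0.119 without and 0.0223 with the replicate block (edgeR). DESeq2 gave an adjusted p of 0.0451 for this comparison. The parents differed by 4.13 ± 1.5, with an adjusted p of 0.169 without and 0.013 with the replicate block (edgeR). Mmp10, or stromelysin-2, was at 17.4, 0.118 and 0.831 CPM in MeVa2.1.dOVA, against 0.949, 0.0554 and 0.501 CPM in MeVa2.2.dOVA. It was at 167, 25.4 and 6.92 CPM in MeVa2.1, against 19.2, 0.486 and 9.96 CPM in MeVa2.2. Its libraries overlapped in both pairs and it was called in neither, with adjusted p of 0.219 between the dOVA lines and 0.405 between the parents (edgeR). Mmp1b, the other mouse counterpart of the human collagenase, ranged from 0 to 9.39 CPM over the 12 libraries and was not called in any of the 6 tests over the filtered genes without a replicate block (edgeR). Its 13 counts in MeVa2.1.dOVA and 1 in MeVa2.2.dOVA give a ratio of 13.9 (2.09 to 592). Of the 50-base words in their exons, Mmp3 shares 8.39% with Mmp10 and the predicted gene Gm15244 and Mmp10 shares 8.37% with Mmp3. Mmp1a shares 8.15% with Mmp1b and Mmp1b shares 11.8% with Mmp1a. Reads that lie within shared words cannot be told apart within each pair. The highest level of the neutrophil marker S100a8, 6.11 CPM, was in MeVa2.1 replicate 1, the library with the highest Mmp3, Mmp10 and Mmp1a. The other neutrophil markers, S100a9, Ly6g, Elane and Mpo, were at 0 in that library. The part of S100a8 in these levels was not tested. The exons of Adamts4, Adamts7, Adamts8, Adamts9, Mmp11, Mmp19, Mmp1b, Mmp28 and Timp3 overlap a gene on the opposite strand. The strand setting of the counting is not given in the sources used here, so reads from such partners could be included.

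**Figure D3:**
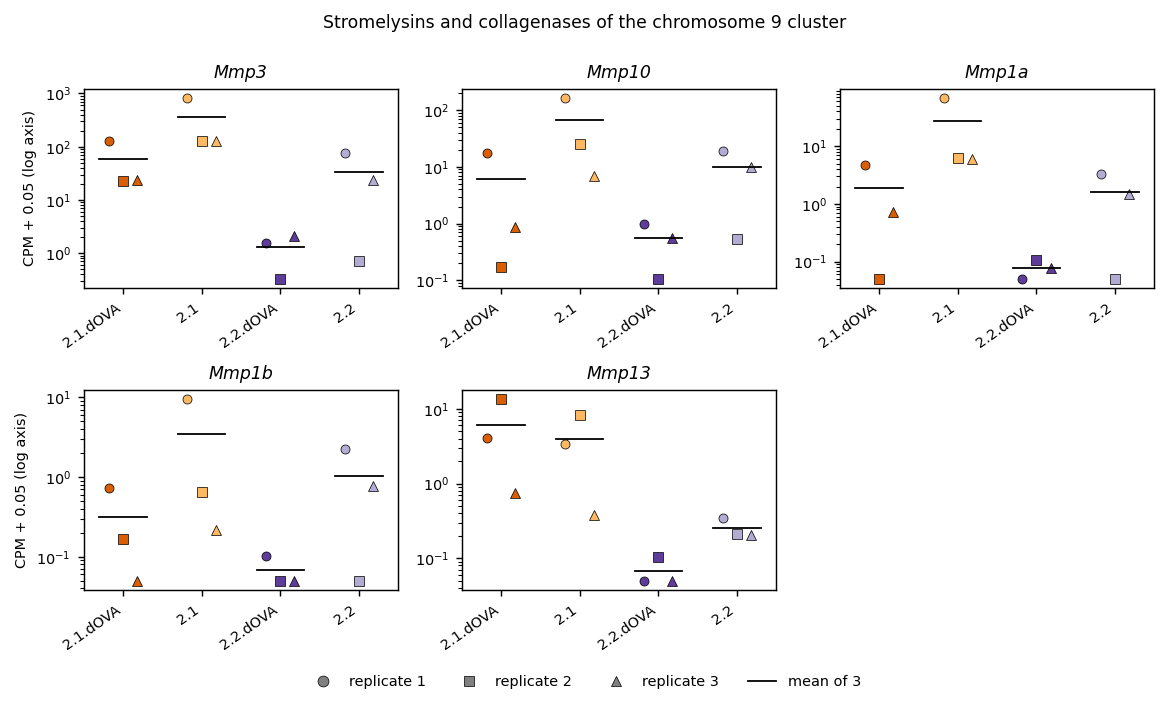
CPM + 0.05 on a log axis for the 5 tested genes of the chromosome 9 cluster. Points are single libraries, shaped by replicate number, and bars are the means of 3. Replicate 1 of MeVa2.1 holds the highest Mmp3 level, at 835 CPM, and Mmp13 is at 0.0554 CPM or lower in all 3 libraries of MeVa2.2.dOVA.

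Mmp2, or gelatinase A, which cuts denatured collagen and basement membrane collagen, and Adamts9, which cleaves versican, went against most members between the dOVA lines. Mmp2 was at 66.2, 32.3 and 84.7 CPM in MeVa2.1.dOVA, against 117, 145 and 228 CPM in MeVa2.2.dOVA, a log2 difference of -1.42 ± 0.40 (adjusted p = 0.0405, edgeR). It was at 174, 148 and 147 CPM in MeVa2.1, against 224, 99.96 and 239.7 CPM in MeVa2.2, where the libraries overlapped (adjusted p = 0.8, edgeR). Adamts9 was at 7.77, 3.61 and 7.34 CPM in MeVa2.1.dOVA, against 24.0, 27.8 and 23.1 CPM in MeVa2.2.dOVA, a log2 difference of -2.0 ± 0.48 (adjusted p = 0.0214, edgeR). It was at 15.6, 7.71 and 24.2 CPM in MeVa2.1, against 11.0, 4.64 and 14.4 CPM in MeVa2.2, with overlap (adjusted p = 0.522, edgeR). For both genes, all 3 libraries of MeVa2.1.dOVA lay below all 3 of MeVa2.2.dOVA.

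Timp3, an inhibitor bound to the matrix that also acts on ADAMTS enzymes, was the inhibitor called between the dOVA lines. It was at 350.3, 298 and 1089 CPM in MeVa2.1.dOVA, against 60.1, 61.8 and 144 CPM in MeVa2.2.dOVA, a log2 difference of 2.71 ± 0.56 (adjusted p = 0.0104, edgeR). It was at 391, 715 and 527 CPM in MeVa2.1 and 465, 573 and 232 CPM in MeVa2.2, where the libraries overlapped (adjusted p = 0.802, edgeR). Timp1 was at 687, 505 and 385 CPM in MeVa2.1.dOVA and 305, 389 and 139 CPM in MeVa2.2.dOVA, and at 870.4, 673 and 401 CPM in MeVa2.1 and 476, 359.9 and 363 CPM in MeVa2.2. Its difference between the dOVA lines, 0.92 ± 0.38, had an adjusted p of 0.142 without and 0.0186 with the replicate block (edgeR). Timp2 was not called between origins, at 774, 1046 and 929 CPM in MeVa2.1.dOVA, 793, 1674 and 1207 CPM in MeVa2.1, 402, 617 and 856 CPM in MeVa2.2.dOVA and 952, 1306 and 899.6 CPM in MeVa2.2. Per kilobase of exon, Timp1 averaged 592 ± 171 CPM per kb in MeVa2.1.dOVA and 313 ± 143 in MeVa2.2.dOVA, and Timp3 71.1 ± 54.4 and 10.9 ± 5.90 CPM per kb in the same lines (SD, n = 3). The order Timp1, Timp2, Timp3 held for the mean levels per kilobase of every line.

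**Figure D4:**
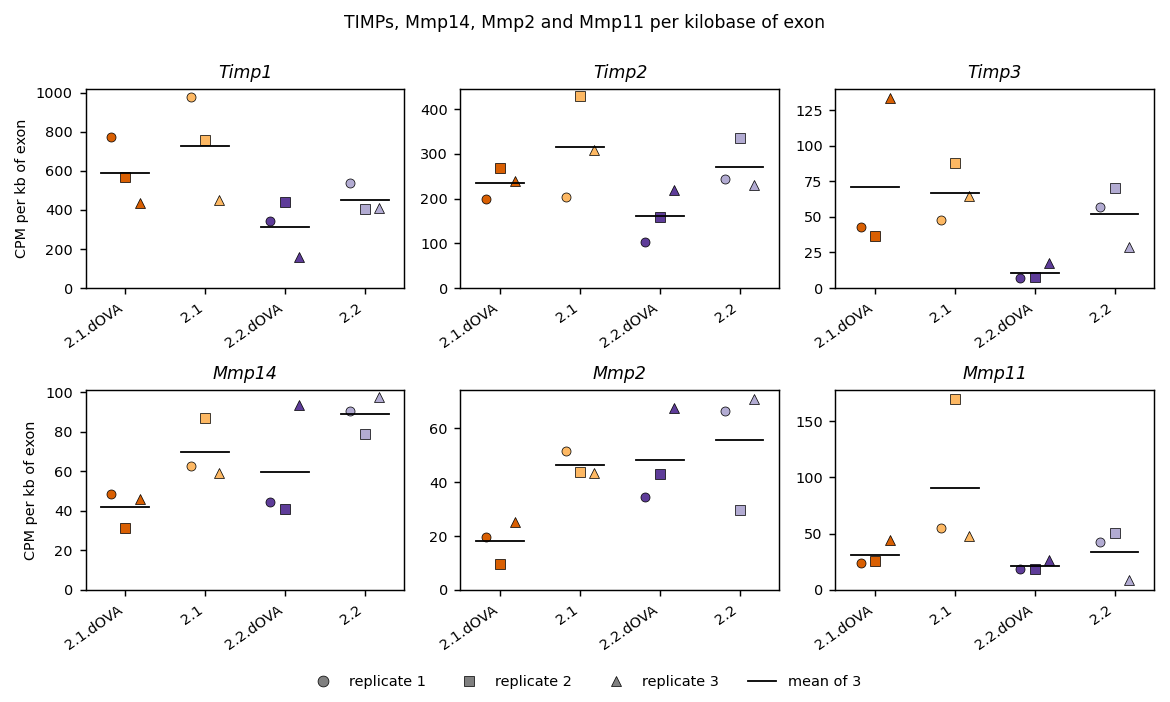
CPM per kilobase of exon for the 3 tested TIMP genes and for Mmp14, Mmp2 and Mmp11, each on its own linear axis from 0. Points are single libraries, shaped by replicate number, and bars are the means of 3. Timp3 in MeVa2.2.dOVA averages 10.9 CPM per kb, against 52.0 in MeVa2.2, and all 3 Mmp2 libraries of MeVa2.1.dOVA are below those of MeVa2.1.

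The calls between origins rested on the libraries to different degrees. Leaving out any of the 12 libraries in turn kept the calls of Mmp17, Adamts8 and Adamtsl4 in both comparisons, of Adamtsl1 between the parents, and of Adamtsl5 and Mmp13 between the dOVA lines. The size of several differences moved by over 1.5-fold with 1 library. Between the dOVA lines, the log2 difference of Mmp3 was 4.09 when MeVa2.1.dOVA replicate 1 was left out and 6.03 when replicate 3 of MeVa2.2.dOVA was, and that of Timp3 was 1.85 without MeVa2.1.dOVA replicate 3. Between the parents, that of Adamts12 was 3.05 without MeVa2.2 replicate 3 and that of Adamts8 5.0 without MeVa2.2 replicate 1. The fitted differences of Adamtsl1 between the parents and Mmp13 between the dOVA lines, which rest on 1 count in one line, also moved that far. The Timp3 call was lost without MeVa2.2.dOVA replicate 1 or 2 (highest adjusted p = 0.0572), and the Adamts9 call without any single MeVa2.1.dOVA library or MeVa2.2.dOVA replicate 1 or 2 (highest 0.0714). The Mmp3 call was lost without MeVa2.1.dOVA replicate 1 or 3 or any single MeVa2.2.dOVA library (highest 0.142). Between the dOVA lines, Mmp2 kept its call only without MeVa2.1.dOVA replicate 3 or MeVa2.2 replicate 2 or 3 (highest adjusted p otherwise 0.115), and Adamts12 only with replicate 2 of MeVa2.1.dOVA, replicate 3 of MeVa2.2.dOVA, or replicate 2 or 3 of MeVa2.2 removed (0.17). Between the parents, Adamts12 kept its call only with replicate 2 of MeVa2.1.dOVA, replicate 2 or 3 of MeVa2.2.dOVA, or replicate 3 of MeVa2.2 removed (0.137), and Adamtsl5 only with replicate 2 of MeVa2.1.dOVA or replicate 3 of MeVa2.2.dOVA removed (0.127). Without MeVa2.1.dOVA replicate 2 and MeVa2.2 replicate 2, 6 members were called between the parents (3.12% of all genes), with Adamts5 in and Adamtsl5 out, and 11 between the dOVA lines (1717 genes, 12% of all), with Mmp1a added. Without MeVa2.2.dOVA replicate 3 the counts were 7 (5.42%) and 9 (18.0%). Without all 4 libraries away from their lines they were 9 between the parents (6.36%) and 15 between the dOVA lines (34.3%). The replicate block gave 12 members between the parents (9.51% of all genes, 5.99% higher and 3.52% lower) and 13 between the dOVA lines (22.0% of all genes, 12.4% higher and 9.60% lower). DESeq2 gave 9 members between the parents (7.54% of all genes, 4.57% higher and 2.97% lower) and 12 between the dOVA lines (15.3%, 8.51% higher and 6.75% lower).

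Non-overlap of the libraries was read beside the same share over all genes. Between the parents, 14 members were higher and 1 lower without overlap, where 12.4% and 11.0% of all tested genes were. Between the dOVA lines, 9 members were higher and 3 lower without overlap, where 16.3% and 13.7% of all genes were, or 29.9% in either direction. Within the replicate numbers, 19 of 32 members were higher and 1 lower in MeVa2.1 than in MeVa2.2 in all 3 numbers, where 24.1% and 23.1% of all genes were. In MeVa2.1.dOVA relative to MeVa2.2.dOVA these counts were 16 and 4, where 28.0% and 25.5% of all genes were.

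The dOVA lines against their parents gave no member past the threshold. Most tested members had lower fitted levels in the dOVA line: 27 of 32 in MeVa2.1.dOVA relative to MeVa2.1 and 25 of 32 in MeVa2.2.dOVA relative to MeVa2.2. The median log2 difference of the members was -0.80 in the first pair and -0.49 in the other (also -0.49 with Adamts8 at its bound), against 0.00 and -0.02 over all tested genes. With edgeR's quasi-likelihood test, 0 members were called in MeVa2.1.dOVA relative to MeVa2.1 (0.486% of all genes, 0.100% higher and 0.386% lower) and 0 in MeVa2.2.dOVA relative to MeVa2.2 (1.99% of all genes, 0.422% higher and 1.57% lower), while 13 and 11 members had an unadjusted p under 0.05, as did 11.2% and 16.4% of all genes. DESeq2 called 4 members lower in each pair, where it called 2.50% of all genes in the first pair (0.507% higher and 1.99% lower) and 5.89% in the other (1.96% higher and 3.94% lower). These were Adamts2, Adamts5, Adamtsl1 and Mmp2 in MeVa2.1.dOVA, and Adamts2, Adamts8, Mmp3 and Timp3 in MeVa2.2.dOVA. With the replicate number as a block, 4 members were lower in MeVa2.1.dOVA relative to MeVa2.1 (2.60% of all genes, 0.536% higher and 2.07% lower), namely Adamts10, Adamtsl1, Mmp1a and Mmp2. In bulk RNA, fewer expressing cells and less RNA per cell cannot be told apart.

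**Figure D5:**
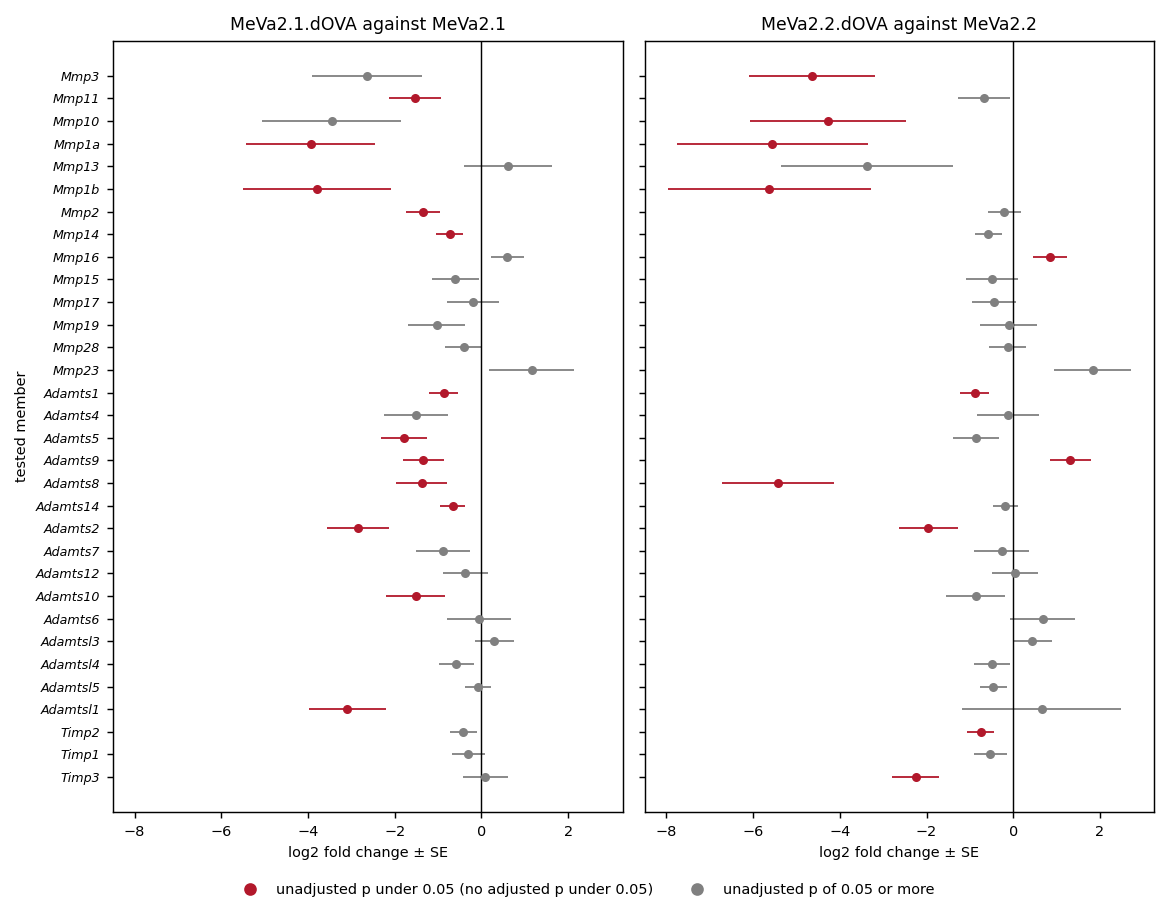
Fitted log2 difference with its SE for the 32 tested members, in MeVa2.1.dOVA against MeVa2.1 (left) and MeVa2.2.dOVA against MeVa2.2 (right), ordered by role. Red points have an unadjusted p under 0.05, and no adjusted p is under 0.05. Most points lie left of 0, and Adamts9 lies left of 0 in the first pair and right of it in the other. The Adamts8 point on the right rests on 0 counts in MeVa2.2.dOVA and its fitted size is no bound.

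In the MeVa2.1 pair, the members without overlap were all lower in MeVa2.1.dOVA, 11 of 32 with none higher, where 10.9% of all genes were lower and 10.2% higher without overlap. Mmp2 in MeVa2.1.dOVA was below MeVa2.1 in every library, with a log2 difference of -1.35 ± 0.40 (adjusted p = 0.211 without and 0.0305 with the replicate block, edgeR). Adamts2, the main procollagen I N-propeptidase, was at 5.02, 2.43 and 3.70 CPM in MeVa2.1.dOVA, against 15.4, 45.5 and 19.0 CPM in MeVa2.1, with a log2 difference of -2.84 ± 0.71 (adjusted p = 0.141, edgeR). Adamts2 was at 2.80, 4.65 and 19.2 CPM in MeVa2.2.dOVA, against 29.6, 20.7 and 54.2 CPM in MeVa2.2, again without overlap (log2 difference -1.96 ± 0.68, adjusted p = 0.176, edgeR). It was the member whose libraries did not overlap in the same direction in both pairs. Adamts14, a further procollagen N-propeptidase, was at 83.4, 62.0 and 73.5 CPM in MeVa2.1.dOVA, against 135, 128 and 83.9 CPM in MeVa2.1. It was at 55.8, 88.8 and 56.0 CPM in MeVa2.2.dOVA and 107, 59.8 and 60.7 CPM in MeVa2.2, where the libraries overlapped.

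The proteoglycan-cleaving genes Adamts1, Adamts4 and Adamts5 were also lower without overlap in MeVa2.1.dOVA, with none called by edgeR. DESeq2 called Adamts5 alone of these (adjusted p = 0.0292). Adamts1, which cleaves versican and aggrecan, was at 120.4, 160.4 and 169 CPM in MeVa2.1.dOVA, against 252, 336 and 237 CPM in MeVa2.1 (log2 difference -0.88 ± 0.33). It was at 124, 104 and 68.1 CPM in MeVa2.2.dOVA and 115, 289.8 and 144 CPM in MeVa2.2. Adamts5, its neighbour on chromosome 16 and a main aggrecanase of mouse cartilage, was at 4.77, 3.20 and 9.49 CPM in MeVa2.1.dOVA, against 10.8, 20.6 and 29.4 CPM in MeVa2.1 (log2 difference -1.79 ± 0.52). Its levels were 3.22, 2.49 and 4.15 CPM in MeVa2.2.dOVA and 4.12, 10.3 and 3.61 CPM in MeVa2.2, with overlap. Adamts4, another aggrecanase, was at 11.4, 1.30 and 9.06 CPM in MeVa2.1.dOVA, against 21.1, 23.5 and 17.4 CPM in MeVa2.1, and at 10.4, 6.43 and 18.4 CPM in MeVa2.2.dOVA, against 8.30, 4.37 and 25.5 CPM in MeVa2.2. The lowest Adamts4 library of all 12 was MeVa2.1.dOVA replicate 2, one of the 4 that lay away from their line. Adamts10, which binds fibrillin, was at 8.13, 1.66 and 5.99 CPM in MeVa2.1.dOVA, against 18.0, 9.51 and 17.8 CPM in MeVa2.1, and was called with the replicate block (log2 difference -1.69 ± 0.37, adjusted p = 0.0439, edgeR). It was at 5.64, 3.66 and 13.5 CPM in MeVa2.2.dOVA and 12.3, 4.64 and 24.9 CPM in MeVa2.2, with overlap. Adamts6, its close relative, was at 12.7, 2.6 and 15.3 CPM in MeVa2.1.dOVA, 10.04, 7.60 and 14.1 CPM in MeVa2.1, 3.11, 2.16 and 11.6 CPM in MeVa2.2.dOVA and 5.81, 1.24 and 3.61 CPM in MeVa2.2.

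Among the metalloproteinases, Mmp14, Mmp11 and Mmp1a were lower without overlap in MeVa2.1.dOVA. Mmp14, which cuts collagen at the cell surface and activates Mmp2, was at 289, 186 and 274 CPM in MeVa2.1.dOVA, against 374, 518 and 351 CPM in MeVa2.1 (log2 difference -0.73 ± 0.31, adjusted p = 0.412, edgeR). In the MeVa2.2 pair it was at 266, 242 and 556 CPM in MeVa2.2.dOVA, against 539, 469 and 582 CPM in MeVa2.2, where only dOVA replicate 3 reached the parent's range. Mmp11, or stromelysin-3, an enzyme activated inside the cell by furin, was at 66.8, 72.2 and 122 CPM in MeVa2.1.dOVA, against 153, 470.4 and 134 CPM in MeVa2.1. It was at 50.9, 51.8 and 72.6 CPM in MeVa2.2.dOVA and 118, 139 and 23.8 CPM in MeVa2.2, with replicate 3 the lowest in MeVa2.2. Mmp1a, whose levels are given above, differed by -3.94 ± 1.49 in the MeVa2.1 pair (adjusted p = 0.35 without and 0.0236 with the replicate block, edgeR). In the MeVa2.2 pair the 2 Mmp1a counts in MeVa2.2.dOVA and 93 in MeVa2.2 give a level 54.7-fold lower in MeVa2.2.dOVA (14.7 to 458). This interval covers counting error only. The Mmp1a libraries overlapped in that pair and the gene was not called (adjusted p = 0.237, edgeR). Mmp3 had a log2 difference of -2.64 ± 1.27 in the MeVa2.1 pair and -4.65 ± 1.45 in the MeVa2.2 pair (adjusted p = 0.477 and 0.135, edgeR). Its libraries overlapped in both pairs, through replicate 1 of MeVa2.1.dOVA in the first and replicate 2 of MeVa2.2 in the other.

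In the MeVa2.2 pair, 5 members were lower and 2 higher without overlap, where 9.22% and 7.67% of all genes were. Timp3 averaged 88.7 ± 48.1 CPM in MeVa2.2.dOVA, against 423 ± 174 CPM in MeVa2.2 (SD, n = 3 each), a log2 difference of -2.25 ± 0.55 with an adjusted p of 0.0647 (edgeR). Leaving out replicate 3 of MeVa2.1.dOVA, or that of MeVa2.2.dOVA, it passed the threshold (adjusted p = 0.0427 and 0.0414, edgeR), where 1.09% and 2.83% of all genes did. Adamts8, at 0 in MeVa2.2.dOVA and 14 counts in MeVa2.2, was at least 5.49-fold lower in MeVa2.2.dOVA (adjusted p = 0.0732, edgeR). Leaving out MeVa2.2 replicate 2 alone (3.12% of all genes called), or together with MeVa2.1.dOVA replicate 2 (4.85%), gave 2 called members, Adamts8 and Mmp3, both lower in MeVa2.2.dOVA. Leaving out MeVa2.2.dOVA replicate 3 gave 3, Adamts2, Mmp14 and Timp3, all lower (2.83% of all genes), and also gave 1 in the MeVa2.1 pair, Adamts2 (0.455%). Leaving out all 4 libraries away from their lines gave 9 members, 8 lower and Adamts9 higher, where 30.6% of all genes were called. In the MeVa2.1 pair, 0 members were called without both replicate 2 libraries (0.0140% of all genes) or without all 4 (0.662%). Timp2 and Mmp13 were the other members lower without overlap, and Mmp13 had 1 count in MeVa2.2.dOVA and 12 in MeVa2.2, a level 14.1-fold lower in MeVa2.2.dOVA (2.09 to 603). This interval covers counting error only, and neither gene was called (adjusted p = 0.259 for Timp2 and 0.42 for Mmp13, edgeR).

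The higher members were Adamts9 and Mmp16. Mmp16, the membrane-type enzyme MT3-MMP, was at 24.1, 17.6 and 38.5 CPM in MeVa2.2.dOVA, against 12.3, 17.1 and 15.2 CPM in MeVa2.2 (log2 difference 0.84 ± 0.38, adjusted p = 0.303, edgeR). It was at 34.2, 24.9 and 39.4 CPM in MeVa2.1.dOVA and 15.0, 14.5 and 35.7 CPM in MeVa2.1, and its libraries overlapped there. The log2 difference of Adamts9 was 1.31 ± 0.47 for MeVa2.2.dOVA against MeVa2.2 (adjusted p = 0.189) and -1.34 ± 0.47 for MeVa2.1.dOVA against MeVa2.1 (adjusted p = 0.311, edgeR).

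Within replicate numbers, 20 members were lower and 4 higher in MeVa2.1.dOVA relative to MeVa2.1 in all 3 numbers, where 25.1% and 24.6% of all genes were. The summed level of 5 fibroblast markers (Dcn, Pdgfra, Thy1, Lum and Fap), none of which was at 0 throughout a line, also differed between the lines. It ranged from 30.5 to 101 CPM in MeVa2.1.dOVA, against 72.9 to 205 CPM in MeVa2.1, and from 11.5 to 53.5 CPM in MeVa2.2.dOVA, against 174 to 239 CPM in MeVa2.2. The ranges overlapped in the first pair and not in the other. Pdgfra made up most of it in every library, and the part of these markers in the members' levels was not tested. Endothelial markers summed to at most 1.22 CPM and keratinocyte markers to at most 0.232 CPM in any library.

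The difference between the dOVA differences of the 2 origins was tested directly. With edgeR 0 members were called (0.0858% of all genes, 0.0501% higher and 0.0358% lower), while 3 of 32 had an unadjusted p under 0.05, Adamts9, Timp3 and Adamts8, as did 8.49% of all genes. Adamts9 had a difference of differences of -2.66 ± 0.67 (adjusted p = 0.184, edgeR), and DESeq2 called this member alone (adjusted p = 0.0104), where it called 1.62% of all genes. Timp3 had 2.34 ± 0.76 (adjusted p = 0.349, edgeR). The MeVa2.1.dOVA mean of Timp3 was 579 ± 443 CPM, against 544 ± 163 CPM in MeVa2.1 (SD, n = 3 each), with replicate 3 of MeVa2.1.dOVA alone above the parent's range.

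A test of any difference among the 4 lines called 14 of the 32 members, where 14.2% of all genes were called. These were Mmp17, Adamts8, Adamtsl4, Adamtsl1, Adamtsl5, Mmp13, Adamts5, Adamts12, Mmp3, Mmp1a, Timp3, Adamts2, Mmp28 and Adamts1. Mmp28, or epilysin, an enzyme of skin keratinocytes and other epithelia, was at 41.8, 44.4 and 67.0 CPM in MeVa2.1.dOVA and 17.7, 13.6 and 35.3 CPM in MeVa2.2.dOVA. It was at 46.0, 99.8 and 58.6 CPM in MeVa2.1 and 26.6, 32.8 and 13.4 CPM in MeVa2.2, so that the MeVa2.1 lines were higher without overlap in both pairs. Mmp28 and Adamts1 were near the threshold (adjusted p = 0.047 and 0.0494, edgeR) and lost the call without most single libraries. Adamts2 lost it without any of 6 single libraries, Adamts5 and Timp3 without any of 4, Mmp1a and Mmp3 without any of 3, and Adamts12 without 1. Mmp19 was not called in these tests with edgeR, while DESeq2 called it in the test of any difference (adjusted p = 0.0413), where it called 21.6% of all genes. It was at 100.2, 46.9 and 90.6 CPM in MeVa2.1.dOVA and 50.1, 64.8 and 16.1 CPM in MeVa2.2.dOVA. It was at 203, 203 and 81.7 CPM in MeVa2.1 and 66.1, 64.4 and 9.99 CPM in MeVa2.2, where the difference of 1.79 ± 0.68 had an adjusted p of 0.186 without and 0.0448 with the replicate block (edgeR). The membrane-type Mmp15 and the membrane-anchored Mmp23 stayed at or below 1.47 and 1.5 CPM.

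The levels were also summed over each family. Mmp genes together held 635 ± 167 CPM in MeVa2.1.dOVA and 1541 ± 557 CPM in MeVa2.1, and 690.5 ± 239.8 CPM in MeVa2.2.dOVA and 969 ± 136 CPM in MeVa2.2 (mean ± SD, n = 3). Adamts genes held 332 ± 49.1 CPM in MeVa2.1.dOVA and 621 ± 70.0 CPM in MeVa2.1, and 260.3 ± 2.48 CPM in MeVa2.2.dOVA and 378 ± 35.4 CPM in MeVa2.2. Adamtsl genes held 288 ± 88.4 CPM in MeVa2.1.dOVA and 284 ± 40.3 CPM in MeVa2.1, and 204 ± 23.1 CPM in MeVa2.2.dOVA and 164 ± 83.0 CPM in MeVa2.2. Timp genes held 2021 ± 331 CPM in MeVa2.1.dOVA and 2417 ± 559.9 CPM in MeVa2.1, and 992 ± 198 CPM in MeVa2.2.dOVA and 1876 ± 373 CPM in MeVa2.2. The 3 Adamts sums of MeVa2.1.dOVA were all below those of MeVa2.1, and the 3 Adamts and 3 Timp sums of MeVa2.2.dOVA were all below those of MeVa2.2. These sums follow the most abundant genes and no test was run on them.

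Genes that act on these enzymes were counted from 5 lists. Of 6 tested genes of activation and regulation, Reck, a membrane-anchored Mmp inhibitor, rose in MeVa2.1 relative to MeVa2.2 (log2 difference 1.45 ± 0.28, adjusted p = 0.0129, edgeR). Lrp1, an endocytic receptor that clears proteinases, rose there as well (log2 difference 0.83 ± 0.21, adjusted p = 0.0463) and in MeVa2.1.dOVA relative to MeVa2.2.dOVA (log2 difference 0.97 ± 0.21, adjusted p = 0.0129), and Pcsk7, a proprotein convertase, fell in MeVa2.1.dOVA (log2 difference -0.55 ± 0.16, adjusted p = 0.0453, edgeR). Of 7 tested membrane-bound ADAM genes, Adam12 (log2 difference 3.94 ± 0.98, adjusted p = 0.0245) and Adam15 (log2 difference 1.21 ± 0.25, adjusted p = 0.0112, edgeR) rose in MeVa2.1.dOVA relative to MeVa2.2.dOVA. Of 3 procollagen processing genes, Pcolce2, an enhancer of procollagen C-proteinase, rose in the same comparison (log2 difference 1.45 ± 0.25, adjusted p = 0.00395, edgeR).

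Of 13 tested matrix substrates, Vcan, which encodes versican, rose in MeVa2.1.dOVA relative to MeVa2.2.dOVA (log2 difference 1.49 ± 0.31, adjusted p = 0.0106, edgeR), and Vcan (log2 difference -1.48 ± 0.31, adjusted p = 0.0404), Col4a2 (log2 difference -1.40 ± 0.27, adjusted p = 0.0314) and Ltbp1 (log2 difference -0.88 ± 0.16, adjusted p = 0.021) fell in MeVa2.2.dOVA relative to MeVa2.2. Between the parents, Fn1, which encodes fibronectin, rose in MeVa2.1 (log2 difference 1.87 ± 0.40, adjusted p = 0.0225) and Ltbp1 fell (log2 difference -0.61 ± 0.15, adjusted p = 0.0492, edgeR). Of 12 AP-1 and ETS factors, Jund rose in MeVa2.1.dOVA relative to MeVa2.2.dOVA (log2 difference 1.31 ± 0.32, adjusted p = 0.0245), and Etv5 fell in MeVa2.2.dOVA relative to MeVa2.2 (log2 difference -1.03 ± 0.20, adjusted p = 0.0302, edgeR). No gene of the 5 lists was called in MeVa2.1.dOVA relative to MeVa2.1 or in the difference of differences. Only 0.486% and 0.0858% of all tested genes were called there, so the absence of list genes says little. Of all tested genes, 4.48% were called between the parents, 11.3% between the dOVA lines and 1.99% in MeVa2.2.dOVA relative to MeVa2.2. The lists had a median log2 difference between -0.50 and 0.03 in MeVa2.1.dOVA relative to MeVa2.1, where all tested genes had 0.00. In MeVa2.2.dOVA relative to MeVa2.2 the medians were -0.15 for activation and regulation, -0.67 for the ADAM genes, -0.71 for procollagen processing, -0.94 for matrix substrates and 0.07 for AP-1 and ETS factors, where all tested genes had -0.02 and the members -0.49.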

How the data were processed

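RNA was sequenced from 4 mouse melanoma lines with 3 libraries each, using poly(A)-selected stranded libraries per the labels' protocols. The deposited values are raw read counts per Ensembl gene. The submitters' processing notes name STAR 2.6.0c, HTSeq 0.10.0, DESeq2 1.30.1 and GRCm38; the strand setting is not given in the sources used here. The tally lines for unassigned reads, 35.8% to 40.0% of each file's total, stayed out of library sizes and tests. Gene counts per library ranged from 16181816 to 35627069.

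Counts were fitted with edgeR 4.0.16 (TMM, filterByExpr, glmQLFit and glmQLFTest, R 4.3.3) on all 12 libraries with 1 mean per line, over 13985 genes, with Benjamini-Hochberg adjustment and a threshold of 0.05. CPM uses effective library sizes. Exon lengths and positions are from the GRCm38 annotation and promoter sequences from RefSeq (GRCm38.p6). Alternatives were DESeq2 1.42.0 with its own size factors, other scaling, no filter, a replicate block, fits on 6 libraries and leaving out each library. Leaving out the 2 or 4 libraries that lie away from their lines was chosen after seeing the data. The fitting code was also run on simulated counts with known changes. Their dispersion was set below the common dispersion of these data (0.1211), so that run does not show power or error rates here.

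Replicate numbers come from the labels, which state no pairing. The correlation of same-numbered deviations was 0.503, 0.488 and 0.534 for MeVa2.1.dOVA with MeVa2.1, 0.429, 0.405 and 0.328 for MeVa2.1 with MeVa2.2, and 0.105, 0.516 and 0.416 for the dOVA lines. All exceed 0.1, so paired readings (the replicate block and the counts within numbers) were added for these comparisons. Replicate 1 of the dOVA lines, at 0.105, barely passed this limit, so the pairing of the dOVA lines is weak there. The block was shared by all 12 libraries, those of the MeVa2.2 pair included. The reported fit had no replicate term, so its calls and adjusted p-values treat the libraries as unpaired. Members described with values in every library were those called in at least 1 of the 6 tests or averaging at least 10 CPM in at least 1 line. Members and lists were chosen with earlier results of these data known.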

Additional observations from a re-analysis of the deposited data

Results flagged for a closer look

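Adamts9, which encodes a versican-cleaving enzyme, differed in direction between the origins. Its level was 7.77, 3.61 and 7.34 CPM in MeVa2.1.dOVA, against 15.6, 7.71 and 24.2 CPM in MeVa2.1, and 24.0, 27.8 and 23.1 CPM in MeVa2.2.dOVA, against 11.0, 4.64 and 14.4 CPM in MeVa2.2. All 3 MeVa2.1.dOVA libraries lay below the mean of MeVa2.1, and all 3 MeVa2.2.dOVA libraries lay above the mean of MeVa2.2. The gene was flagged by this pattern, so the pattern adds no support of its own. The libraries overlapped in the MeVa2.1 pair, at 7.77 CPM in MeVa2.1.dOVA against 7.71 CPM in MeVa2.1, and not in the MeVa2.2 pair. The difference of the log2 differences was -2.66 ± 0.67, which did not pass the test over all genes (adjusted p = 0.184, edgeR). DESeq2 gave an adjusted p of 0.0104.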

How the results depend on the processing

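Over all alternatives no called member reversed. Of the results called in the reported fit, 252 values with a direction kept it and stayed called and 52 kept it but lost the call. In the test of any difference, which has no direction, 210 stayed called and 42 did not. The counts moved as follows, and the cause was not tested. For MeVa2.1.dOVA against MeVa2.1, 0 members were called, with 4 by DESeq2 (2.50% of all genes), 3 without the filter (0.966%) and 4 with the replicate block (2.60%). For MeVa2.2.dOVA against MeVa2.2 it was 0, with 4 by DESeq2 (5.89% of all genes), 5 without the filter (2.59%) and 6 with the replicate block (7.75%). It was 2 without MeVa2.1.dOVA replicate 2 and MeVa2.2 replicate 2 (4.85%), and 9 without all 4 libraries away from their lines (30.6%). In this pair the same-numbered deviations correlated at 0.0815, 0.64 and 0.521. Replicate 1 fell under the limit of 0.1 and the others lay above it, so the pairing is uncertain. The members called with the block were Timp3, Adamts8, Mmp3, Mmp1a and Mmp1b, all lower in MeVa2.2.dOVA, and Adamts9, higher. For MeVa2.1 against MeVa2.2 it was 6 (4.48% of all genes), with 12 without the filter (3.44%) and 12 with the replicate block (9.51%). With only the 6 libraries of the 2 lines fitted it was 4 (2.96%), with Adamts12 and Adamtsl5 not called. For the difference of the dOVA differences it was 0, with 1 by DESeq2 (1.62% of all genes) and 2 without the filter (0.572%). It was 1 without those 4 libraries (Timp3, with 11.0% of all genes called). With the replicate block it was 1, Adamts9 (log2 value -2.81, adjusted p = 0.0331, edgeR, with 0.844% of all genes called). That comparison takes in the MeVa2.2 pair, so its blocked result rests on the same uncertain pairing. For any difference among the 4 lines it was 14 (14.2% of all genes), with 22 without the filter (10.3%). It was 22 without those 4 libraries (38.9%) and 25 with the replicate block (31.0%). The blocked count takes in the MeVa2.2 pair as well, under the same limit. Leaving out each library in turn gave 0 to 1 members for MeVa2.1.dOVA against MeVa2.1, 0 to 3 for MeVa2.2.dOVA against MeVa2.2, 4 to 7 between the parents, 5 to 10 between the dOVA lines, 0 for the difference of differences and 7 to 16 for any difference. The count between the dOVA lines was 5 without MeVa2.2.dOVA replicate 1 or 2 and 6 without MeVa2.1.dOVA replicate 1. The lowest of 7 for any difference was without MeVa2.2.dOVA replicate 1 or 2. Over all genes, the count for MeVa2.1.dOVA against MeVa2.1 was 68, with 390 by DESeq2, 364 with the replicate block, 272 without the filter and 1 to 83 without single libraries. For MeVa2.2.dOVA against MeVa2.2 it was 278, with 951, 1084, 729 and 20 to 447 by the same settings. Between the parents it was 627, with 1216, 1330, 969 and 279 to 775, and between the dOVA lines 1574, with 2379, 3079, 1752 and 796 to 2578. For the difference of differences it was 12, with 262, 118, 161 and 0 to 13, and for any difference 1984, with 3718, 4340, 2908 and 1249 to 2974. Fits on only the 6 libraries of the lines compared called 25 genes (0.190%) in the MeVa2.1 pair and 5 (0.0380%) in the MeVa2.2 pair. Both had 0 members. Such fits called 397 genes between the parents and 1025 (7.85%) between the dOVA lines, the latter with 9 members and Mmp2 not called. Genes at a few counts, such as Adamts8, Adamtsl1 and Mmp13, are limited by depth.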
